A study of Mus musculus with 65 samples.

Results

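The zinc finger genes with symbols from Zfp600 to Zfp999 were examined by nascent transcription in murine erythroleukemia (MEL) cells. They were chosen by symbol alone, as every such symbol in the gene tables, with the transcript of the highest mean standing for each gene. There were 136 such genes among 15020 symbols, and 117 of them reached a mean of at least 10 normalised reads over the 4 gene tables, as did 12630 of all symbols. The genes Zfp970 and Zfp971 were already known from these libraries to fall when the corepressor Mtg16 was degraded, and the question put to the family was whether it fell with them.

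All libraries came from the line MEL Mtg16-FKBP-2XHA, in which Mtg16 (encoded by Cbfa2t3), a corepressor of the ETO family that binds no DNA by itself, carries a degron tag. The controls carry the tag too, and whether the line is a single clone is not given in the sources used here. Transcription was read by PRO-seq, which sequences RNA made by engaged polymerases in isolated nuclei. In the time course, cells received DMSO (n = 3) or the degrader dTAGV1 at 250 nM for 15 min, 30 min or 1 h (n = 3 each) or 2 h (n = 2), or had the degrader washed out after 2 h, with 30 min (n = 2), 1 h (n = 1) or 2 h (n = 2) of recovery in the columns used. In the A485 series, cells received DMSO, degrader, A485 at 10 uM or both agents for 15 min, 30 min or 1 h, with 3 libraries a group and 2 for each 30 min group that held A485. A485 inhibits the acetyltransferase activity of p300 and CBP. In the LBH589 series, cells received DMSO or LBH589 (panobinostat, a histone deacetylase inhibitor) at 5 nM for 30 min or 1 h (n = 3 each). A washout series had 30 min and 1 h of recovery from 2 h of degrader at 250 nM, with LBH589 at 5 nM (n = 3 each). When LBH589 was added there is not given in the sources used here. Nothing in the labels says that replicates came from separate cultures, so p-values measure the spread between these libraries only, which may be technical.

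Most genes with Zfp symbols encode proteins with tandem C2H2 zinc fingers, each finger contacting a few bases of DNA. The largest group joins the fingers to a KRAB domain, which recruits the corepressor Trim28 and the methyltransferase Setdb1 to silence transposable elements, and such genes lie in tandem clusters that grew by duplication. A smaller number act outside that system, among them relatives of human ZNF652, a DNA-binding partner of the Mtg16 protein.

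The promoters of Zfp970, Zfp971 and their neighbour Zfp972 are shown because the first pair fell with the degrader, A485 and LBH589 while the third passed no test. The windows run from 250 bases before to 50 bases after the annotated start (RefSeq, GRCm38.p6), read 5′ to 3′ on the strand of the gene, and capitals mark each CCAAT or its reverse complement ATTGG. Zfp970 is at chr2:177464492-177464791 on the + strand, Zfp971 at chr2:178023034-178023333 on the + strand, and Zfp972 at chr2:177925601-177925900 on the - strand.
Zfp970: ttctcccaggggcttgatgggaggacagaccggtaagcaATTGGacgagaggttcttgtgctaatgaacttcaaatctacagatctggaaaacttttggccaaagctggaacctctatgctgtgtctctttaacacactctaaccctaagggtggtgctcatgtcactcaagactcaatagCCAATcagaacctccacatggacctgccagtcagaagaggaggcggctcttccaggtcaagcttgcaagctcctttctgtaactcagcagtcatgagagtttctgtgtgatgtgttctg
Zfp971: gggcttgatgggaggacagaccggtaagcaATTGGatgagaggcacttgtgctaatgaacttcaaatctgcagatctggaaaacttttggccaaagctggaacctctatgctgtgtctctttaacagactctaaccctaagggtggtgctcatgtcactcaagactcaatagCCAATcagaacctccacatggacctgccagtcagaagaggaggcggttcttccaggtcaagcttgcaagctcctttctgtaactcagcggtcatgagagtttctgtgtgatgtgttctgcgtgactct
Zfp972: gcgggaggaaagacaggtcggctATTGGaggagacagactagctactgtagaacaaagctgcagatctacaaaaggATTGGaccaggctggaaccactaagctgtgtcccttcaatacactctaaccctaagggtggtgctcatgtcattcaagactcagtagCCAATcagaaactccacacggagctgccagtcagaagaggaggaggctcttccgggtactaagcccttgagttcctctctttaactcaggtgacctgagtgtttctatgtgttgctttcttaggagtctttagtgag
The Zfp970 and Zfp971 windows were identical at 284 of 291 aligned bases (97.6%), whereas that of Zfp972 was identical to the Zfp970 window over 79.6% of a 285-base alignment. All 3 held CCAAT, with 2 matches for Zfp970, 2 for Zfp971 and 3 for Zfp972, and CCAAT on either strand was present in 55 of the 102 members' promoters that could be matched (53.9%) against 37.9% of all 27025 promoters. The ETS core CCGGAA, searched on both strands like the motifs that follow, was in 33.3% of members' promoters and 15.2% of all promoters, and matched once in the Zfp972 window. The GATA site AGATAA was in 6.86% of members' promoters and 11.4% of all. The RUNX site TGTGGT was in 14.7% and 16.9%. The E-box letters CAGATG were in 17.6% and 17.2%, and the palindromic E-box CAGCTG was in 25.5% and 16.1%. Those last 4 motifs had no match in the 3 windows shown. The members here had passed the limit on the mean, whereas all promoters were not filtered by transcription. Whether any of these motif shares is a trait of the family was therefore not tested.

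Zfp970 and Zfp971 have many near-identical relatives, and how reads that match several copies were assigned is not given in the sources used here, so both genes' levels are uncertain to that extent. Of the 300-base windows of all promoters, 25 others shared at least 10% of the 15-base words of the Zfp970 window. Zfp967, Zfp966, Zfp965, Zfp968 and Zfp973 shared 90.6%, 90.6%, 82.9%, 81.5% and 76.2% of them, more than the 67.8% of Zfp971, yet each of these 5 genes fell below the mean of 10. Among the relatives outside the Zfp600 to Zfp999 range that were tested, Gm14403, Gm14325, Gm14410 and Gm14326 had log2 changes with 1 h of A485 of -0.21, -0.18, 0.14 and -0.04, and none of the 4 passed the test there.

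Recovered library sizes were 16.2 to 62.4 M reads in the time course, 7.45 to 62 M in the A485 series, 28.1 to 44.8 M in the LBH589 series and 13.5 to 29.1 M in its washout series. Erythroid markers were transcribed in DMSO of the A485 series (Tal1 2966 ± 18.4 normalised reads, Gata1 2104 ± 68.3, SD, n = 3), while the endothelial gene Pecam1 had 75.8 ± 10.4 and the adult globin gene Hbb-bs 6.32 ± 2.12. Cbfa2t3 itself rose with degrader, by 2.18 ± 0.11 (log2, SE) at 1 h in the A485 series, so its transcription does not check the loss of its protein. In the time course, the degrader 15 min replicate 2 and degrader 30 min replicate 3 libraries stood apart: after removing the table's mean, their mean correlations with the other libraries of their own group were -0.54 and -0.30. The library labelled degrader 30 min replicate 3 correlated at 0.91 and 0.92 with the 2 washout 30 min libraries and at -0.34 and -0.27 with the other degrader 30 min libraries. The library labelled degrader 15 min replicate 2 correlated best with the washout 1 h library (0.60). Whether labels were exchanged, so that the 30 min degrader values hold a washout library, was not tested. In 5 degrader libraries of the time course (1 h and 2 h), the title and the treatment label name A485 but the library name names dTAGV1. They were grouped by the library name. Gata1 averaged 6303 and 4984 normalised reads in them at 1 h and 2 h, against 2809 in DMSO of the time course. In the A485 series Gata1 averaged 3358 with 1 h of degrader and 214 with 1 h of A485, against 2104 in DMSO. Because of the 2 libraries that stand apart, time-course results are given with all 19 libraries and without those 2.

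The members spanned a wide range of transcription. In DMSO of the A485 series, levels ran from 7.46 normalised reads for Zfp960 to 4420 for Zfp644, with a median of 325. Per kilobase of gene, the median was 20.2 against 26.1 over all genes tested, and the members' genes had a median length of 17.4 kb against 21.5 kb. The highest per kilobase were Zfp646 (170), Zfp809 (144), which directs silencing of retroviruses in embryonic stem cells, and Zfp653 (123). In normalised reads, Zfp644, Zfp809 and Zfp609 had the highest means over the tables. Just above the limit of 10 stood Zfp960 (mean 11), Zfp819 (13.5) and Zfp791 (19.1), and just below it Zfp618 (5.74) and Zfp827 (4.82); of the 19 genes below it, 3 had a mean of 0.

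When Mtg16 was degraded, most members were slightly lower in the time course, few of them passed the test with all libraries, and the A485 series showed this at 15 min and not later. A gene was called when limma's adjusted p (Benjamini-Hochberg over all genes of a table) was under 0.05 on log2(value + 1), so the changes of low genes are understated. In the time course at 15 min, 1 of 116 members was higher and 0 lower, where 5.89% and 1.04% of all 12720 genes were called in those directions; 8 members had an unadjusted p under 0.05, and edgeR on recovered reads also called 0 lower. At 30 min, 3 were higher and 6 lower (2.59% and 5.17% of members), beside 8.69% and 5.17% of all genes. At 1 h, 1 was higher and 3 lower (all genes 8.13% and 3.15%), and at 2 h, 2 were higher and 2 lower (all genes 6.77% and 2.63%). With all libraries the shares called lower were near or below the background, and the shares called higher below it. The calls lower include Zfp970 and Zfp971, which prompted the question: without that pair, 0, 4, 2 and 0 of 114 members were lower at the 4 times. The counts were unstable: leaving out 1 library moved the 9 members called at 30 min to 3 (without DMSO replicate 3) up to 22 (without degrader replicate 2), and fitting the compared groups alone gave 1 at 30 min, 21 at 1 h and 20 at 2 h. More members lay below 0 than genes in general, whether called or not. Without the pair, 67.5%, 69.3%, 78.1% and 73.7% of members were below 0 at the 4 times, against 54.7%, 51.1%, 53.1% and 50.3% of all genes, and at 1 h the upper quartile was -0.01 for members and 0.12 for all genes. The median change over members was -0.07, -0.10, -0.08 and -0.09 at the 4 times, against -0.02, -0.01, -0.01 and 0.00 over all genes, and the other numbered Zfp genes had medians of -0.09, -0.13, -0.09 and -0.06.

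Without the 2 libraries that stand apart, more members and more genes of every kind were called in the time course, and the members leaned to lower. At 15 min, 4 were higher and 14 lower (12.1% lower), where 14.1% and 13.7% of all genes were called. At 30 min, 3 were higher and 10 lower (8.62%), beside 12.2% and 8.86% of all genes. At 1 h, 5 were higher and 25 lower (21.6%), where 15.1% of all genes were called in each direction. At 2 h, 10 were higher and 24 lower (20.7%), where 17% and 14% were called. Without Zfp970 and Zfp971 as well, 10.5%, 7.02%, 20.2% and 19.3% of the other 114 members were lower at the 4 times. All 4 members called at 1 h with all libraries were among the 30 called without the 2 libraries, as were 7 of the 9 called at 30 min, and the medians stayed at -0.08, -0.11, -0.08 and -0.09. The libraries were doubted on their values in these data, and that choice was not tested against any outside record.

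**Figure D1:**
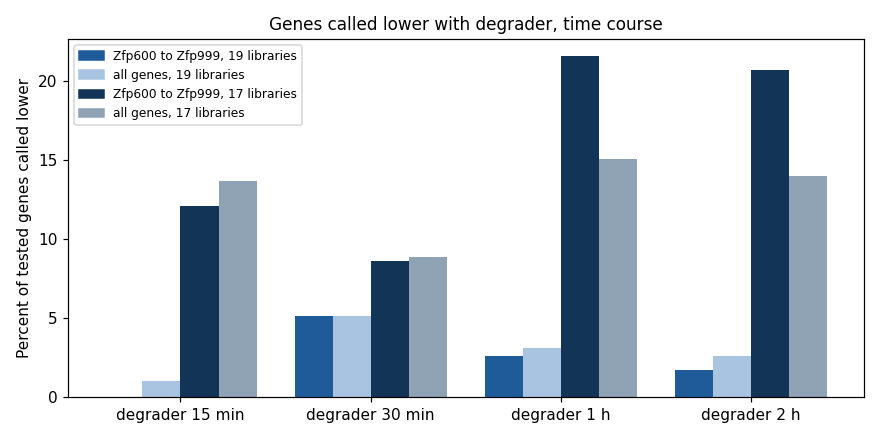
Percent of tested genes called lower with degrader at 4 times in the time course, for the zinc finger genes Zfp600 to Zfp999 and for all genes, with all 19 libraries and with the 17 left after removing the pair that stand apart. With 17 libraries the members' bars reach 21.6% at 1 h and 20.7% at 2 h, above 15.1% and 14% of all genes; at 15 and 30 min they lie just below the bars of all genes.

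The A485 series gave 15 min, 30 min and 1 h of degrader, but not 2 h, in other libraries, and the members leaned to lower at 15 min but not at 30 min or 1 h. At 15 min, 2 members were higher and 5 lower (all 12597 genes 10.9% and 5.8%), and at 30 min, 5 were higher and 5 lower (all genes 11.3% and 9.23%). At 1 h, 10 were higher and 6 lower, or 8.62% and 5.17% of members, against 14.7% and 10.9% of all genes. The member medians were -0.03, 0.01 and 0.04. Without Zfp970 and Zfp971, 59.6%, 42.1% and 41.2% of members were below 0 at the 3 times, against 50.3%, 49.8% and 50.2% of all genes, and 4, 3 and 4 were called lower. The difference between the experiments was not tested. The degrader comparisons of an experiment share their DMSO libraries.

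Zfp970 was lower at every degrader time in both experiments. The falls of Zfp970 and Zfp971 with degrader were known beforehand, so they are given as descriptions in both experiments, and calls of the pair with degrader are no support. In the time course, Zfp970 had 245, 333 and 316 normalised reads in DMSO. With degrader it had 177, 94.9 and 161 at 15 min and 134, 126 and 24.3 at 30 min. It then had 134, 89.1 and 100 at 1 h, and 68.8 and 89.1 at 2 h. Every degrader library lay below every DMSO library, and the value of 24.3 belongs to a library that stands apart. In the A485 series, Zfp970 had 188, 170 and 189 in DMSO, 112, 92.5 and 98.1 at 15 min, 64.4, 76.2 and 82.7 at 30 min, and 62.9, 66.2 and 69.5 at 1 h. These groups did not overlap, and the falls were -0.85 ± 0.27 (log2, SE), -1.29 ± 0.27 and -1.45 ± 0.27.

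Zfp971, the more highly transcribed of the pair, followed the same course at smaller size. In DMSO of the time course, Zfp971 had 1379, 1682 and 1389 normalised reads, and at 2 h of degrader it had 582 and 497. Among the libraries made with A485, DMSO gave 827, 658 and 724 and 1 h of degrader gave 381, 386 and 513, with no overlap. The change was -0.50 ± 0.18 at 15 min, -0.92 ± 0.18 at 30 min and -0.79 ± 0.18 at 1 h. Over 62 libraries, each taken against its table's mean on the log2 scale, the levels of Zfp970 and Zfp971 had a Pearson correlation of 0.89, a description over libraries that share tables and treatments. The ratio of Zfp971 to Zfp970 was 4.03 on average in DMSO of the A485 series and 6.42 at 1 h of degrader.

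Zfp972, which lies between them on chromosome 2 in the opposite orientation, did not pass the test in any comparison. In the A485 series Zfp972 had 56, 36.5 and 41.8 normalised reads in DMSO, 39.5, 37 and 54.2 with 1 h of degrader and 43.1, 44.5 and 43.6 with 1 h of A485. These ranges overlap, and the changes at 1 h were -0.04 ± 0.25 and -0.01 ± 0.25. With levels this low the standard errors are wide, and its correlation with Zfp970 over libraries was 0.06.

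**Figure D2:**
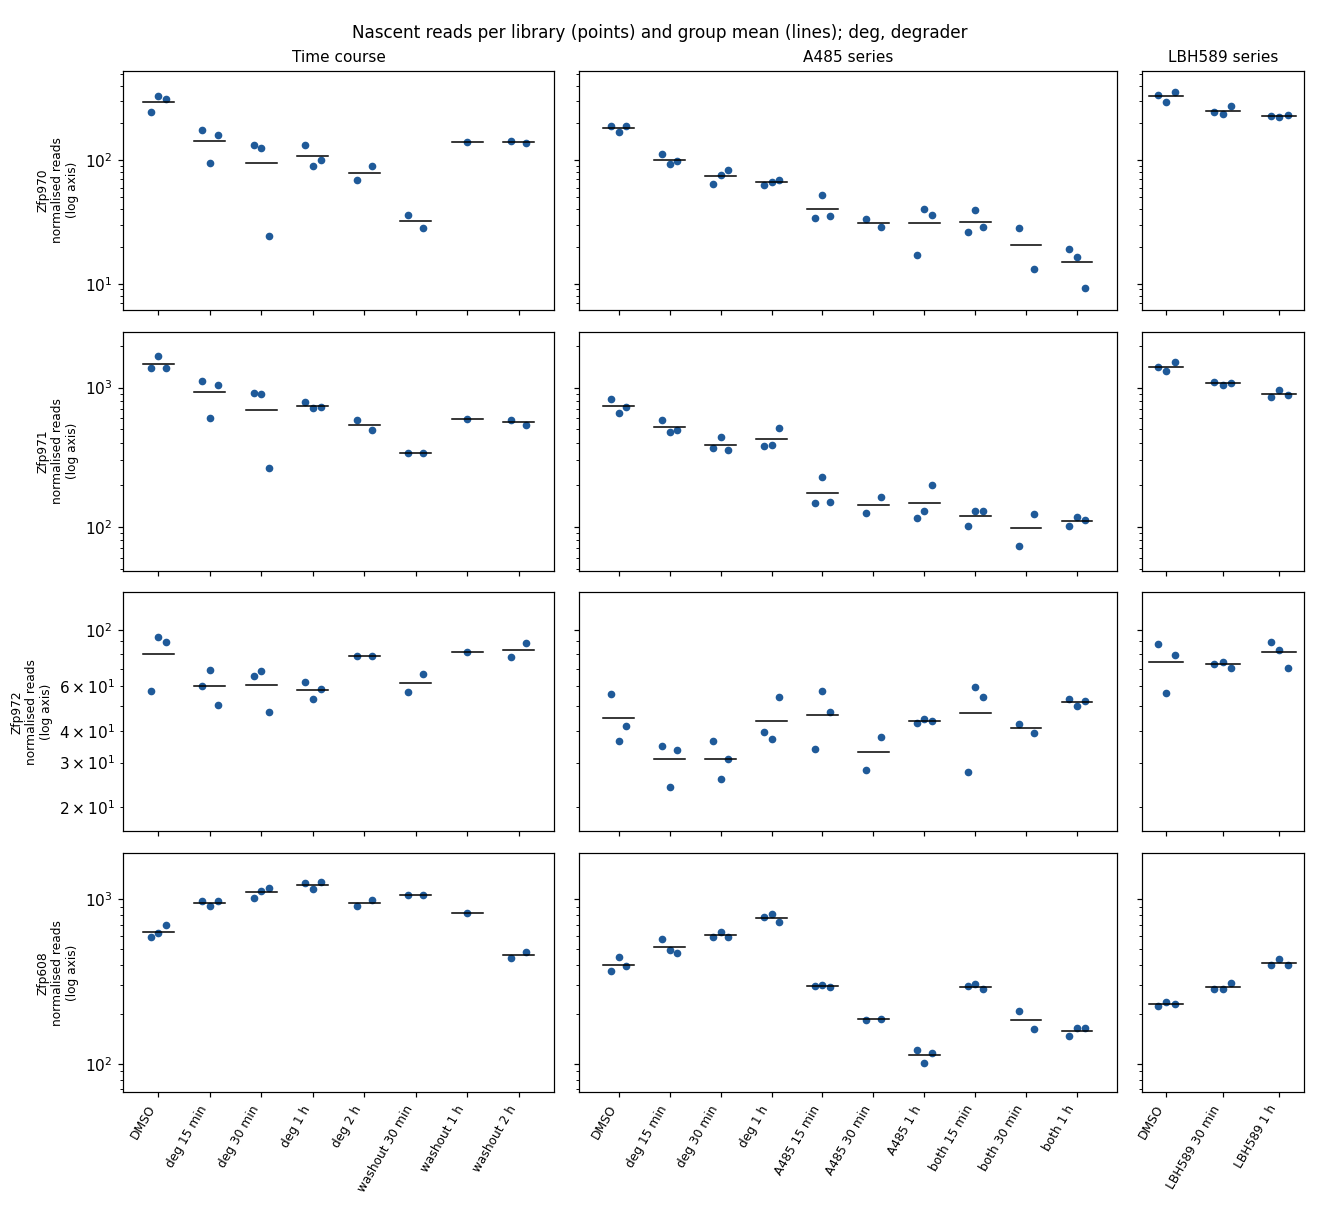
Normalised reads per library (points, log axis) and group mean (lines) for Zfp970, Zfp971, Zfp972 and Zfp608 in the time course, A485 series and LBH589 series, each table scaled on its own; deg is the degrader. Zfp970 and Zfp971 step down with degrader and lie lowest with A485, Zfp972 does neither, and Zfp608 rises with degrader and falls with A485.

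Zfp608 moved the other way and was the single member called in all 7 degrader comparisons. Zfp608, a large zinc finger protein without a KRAB domain, had 589, 624 and 691 normalised reads in DMSO of the time course. It had 969, 903 and 967 at 15 min, 1021, 1125 and 1172 at 30 min, 1251, 1151 and 1264 at 1 h and 911 and 981 at 2 h. Every degrader library was above every DMSO library, the 2 that stand apart included. The changes were 0.58, 0.80, 0.95 and 0.58 (SE 0.08 to 0.09), the highest of any member at each time, and adjusted p at 1 h was 4.5e-07 (limma). For the same gene in the other experiment, DMSO gave 365, 442 and 394 and 1 h of degrader 778, 806 and 722, a change of 0.94 ± 0.09 (adjusted p = 1.29e-09). Its rise at 15 min there was 0.35 ± 0.09, a call lost without DMSO replicate 4 or degrader replicate 4. Zfp970 and Zfp608 were the 2 members called in the same direction with 1 h of degrader in both experiments when all libraries were used. The fall of Zfp970 was known beforehand, so its calls are no support. The call of Zfp970 in the time course was lost without any one of the 6 libraries compared. It was also lost in the fit with the replicate number as a block, which kept the call of Zfp608. Without the 2 libraries that stand apart, 5 members were called in the same direction in both. Zfp608 and Zfp740 were higher, and Zfp970, Zfp971 and Zfp871 lower (Zfp871 by -0.19 ± 0.04 in the time course, adjusted p = 0.00162, limma). In that refit 15.1% of all genes were called in each direction in the time course, and in the A485 series 14.7% were higher and 10.9% lower. The share of all genes called alike in both experiments was not counted, so the 5 are not set apart from other genes.

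Other members called with degrader were called at 1 or 2 times. Zfp651 and Zfp652 are the mouse relatives of the Mtg16 partner ZNF652. Zfp651 had 87.7, 86.7 and 77.7 normalised reads in DMSO of the A485 series and 37.7, 45.9 and 31.8 at 30 min of degrader, a change of -1.12 ± 0.20 (adjusted p = 9.55e-05, limma). At 1 h it had 45.9, 60.6 and 58.4 (-0.61, adjusted p = 0.023), but in the time course its values at 1 h overlapped with DMSO (0.26, adjusted p = 0.34). Zfp652 was higher at 15 min in the A485 series (0.25 ± 0.07, adjusted p = 0.0161), a call lost without DMSO replicate 5 or 6 or degrader replicate 4, and did not pass the test at 1 h in either experiment. Zfp783 was higher at 1 h in the A485 series, with 223, 254 and 265 in DMSO and 352, 439 and 420 with degrader (0.70 ± 0.12, adjusted p = 2.75e-05). Zfp791, near the limit of detection, went from 20.8, 28.5 and 27.9 to 10.7, 8.98 and 6.95 (-1.44 ± 0.43, adjusted p = 0.0121), a call lost without degrader replicate 6.

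In the time course the remaining falls were smaller. Zfp964 (-1.05 ± 0.26) and Zfp647 (-0.60 ± 0.15) were called lower at 30 min, and in both the lowest degrader library was replicate 3, one of the 2 that stand apart (Zfp964 60.1, 47.7 and 24.3 normalised reads; Zfp647 217, 243 and 149). Without those 2 libraries the changes at 30 min were -0.68 for Zfp964 and -0.39 for Zfp647, both still called. Zfp945 (-0.53 ± 0.14) and Zfp949 (-0.35 ± 0.10) were called lower at 1 h, and both calls were lost without DMSO replicate 2 or 3 or degrader replicate 1 or 2. That of Zfp949 was also lost without degrader replicate 3 and with the replicate number as a block (adjusted p = 0.0614, limma). Zfp800 rose at 2 h, from 2675, 2451 and 2478 to 3284 and 3379 (0.40 ± 0.10, adjusted p = 0.0178, limma), a call lost without DMSO replicate 2 or 3 or either degrader library. At 15 min in the A485 series, Zfp664 was lower by a small amount (-0.21 ± 0.05, adjusted p = 0.00117), as was Zfp831 (-0.18 ± 0.06, adjusted p = 0.0479), whose call was lost without any one of the 6 libraries. Zfp994 was higher at 30 min (0.49 ± 0.17, adjusted p = 0.0365), a call lost without DMSO replicate 5 or 6 or degrader replicate 5.

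After the degrader was washed out, Zfp608 returned to and below its DMSO level, while Zfp970 and Zfp971 did not return to theirs. Zfp608 had 1053 and 1060 normalised reads at 30 min of washout, 817 at 1 h (a single library) and 440 and 475 at 2 h, the last below all 3 DMSO libraries. Its change from 2 h of degrader to 2 h of washout was -1.05 ± 0.10 (adjusted p = 1.78e-05, limma). Changes at 2 h of washout went with gene length over all genes, longer genes being lower (Spearman's rho -0.43), and Zfp608 is 104.5 kb long. Whether its length accounts for its fall was not tested. Zfp970 had 35.9 and 28 at 30 min, 140 at 1 h and 143 and 138 at 2 h, against 245 to 333 in DMSO. Zfp971 had 339 and 340, then 591, then 588 and 534, against 1379 to 1682. Neither gene passed the test against 2 h of degrader with all libraries; without the 2 that stand apart, Zfp970 was lower at 30 min (-1.28 ± 0.20, adjusted p = 2.36e-05) and higher at 2 h (0.83 ± 0.20, adjusted p = 0.00235). In the same refit Zfp971 was lower at 30 min (-0.66 ± 0.10, adjusted p = 9.1e-06) and changed by 0.06 ± 0.10 at 2 h (adjusted p = 0.64).

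Among all members, 15 were higher and 15 lower at 30 min of washout than at 2 h of degrader (all genes 10.5% and 13.8%), and 9 were higher and 5 lower at 2 h (all genes 8.98% and 8.3%). Without the 2 libraries that stand apart the counts were 30 higher and 36 lower at 30 min (all genes 24.7% and 26.3%), and 29 higher and 12 lower at 2 h, where 22.2% and 20.8% of all genes were called, so 10.3% of members were lower at 2 h. Zfp784 went from 135 and 130 normalised reads at 2 h of degrader to 355 and 343 at 30 min of washout (1.39 ± 0.31) and Zfp948 from 546 and 554 to 982 and 1154 (0.95 ± 0.24). In both genes degrader 30 min replicate 3 resembled the washout libraries, at 398 for Zfp784 and 1105 for Zfp948, where the other 2 degrader 30 min libraries had 160 and 168, and 523 and 525. Zfp661 (-1.16 ± 0.21), Zfp964 (-0.99 ± 0.32) and Zfp839 (-0.93 ± 0.25) were lower at 30 min of washout. At 2 h of washout, Zfp688 (1.17 ± 0.21), Zfp747 (1.60 ± 0.43), Zfp707 (0.88 ± 0.19) and Zfp691 (0.79 ± 0.19) were higher. Zfp707 had 229 and 211 at 2 h of degrader and 401 and 413 at 2 h of washout. These risers are short genes (4.28, 3.51, 6.75 and 4.68 kb in that order), and shorter genes were higher there in general. Whether length accounts for their rises was not tested. With 2 libraries a group, leaving out any one of the 4 compared left 0 of the 30 members called at 30 min, and 3 to 7 of the 14 at 2 h.

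With A485 the family rose more often than it fell, where genes in general fell slightly more often than they rose. At 15 min, 46 members were higher and 21 lower of 116 (39.7% and 18.1%), against 25.8% and 29.3% of all genes. At 30 min, 56 were higher and 19 lower (48.3% and 16.4%), against 27.1% and 31% of all genes. At 1 h, 58 were higher and 18 lower (50% and 15.5%), against 29.4% and 33.2%. The member medians were 0.17, 0.25 and 0.25 on the log2 scale, where the medians of all genes were 0.00. The other numbered Zfp genes did likewise, with 84 of 157 higher and 24 lower at 1 h and a median of 0.20, so nothing here sets these members apart from them. The 3 times share their DMSO libraries.

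These directions are relative to the typical gene of each table. With upper quartile scaling the median of all genes itself moved to 0.15 at 30 min and 0.17 at 1 h, and the member medians to 0.39 and 0.42. The share of called members that were higher was 68.7% at 15 min as deposited and 79.3% with upper quartile scaling, and 76.3% and 84% at 1 h. A change in the total amount of nascent RNA cannot be read from these values.

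**Figure D3:**
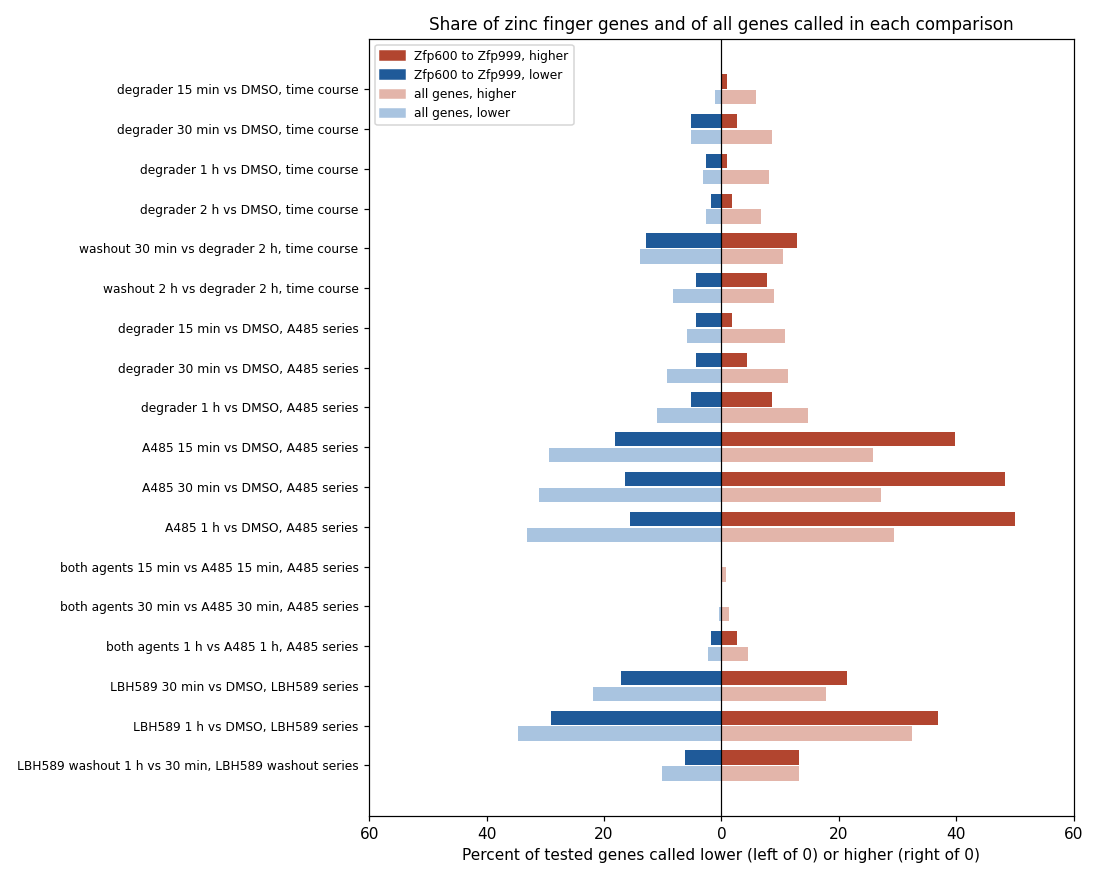
Percent of tested genes called lower (left of 0) or higher (right of 0) in 18 comparisons, for the zinc finger genes Zfp600 to Zfp999 (dark bars) and for all genes (pale bars), with all libraries. With A485 the members' bars for higher reach 39.7% to 50% and those for lower 15.5% to 18.1%, where all genes have 25.8% to 29.4% and 29.3% to 33.2%.

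**Figure D4:**
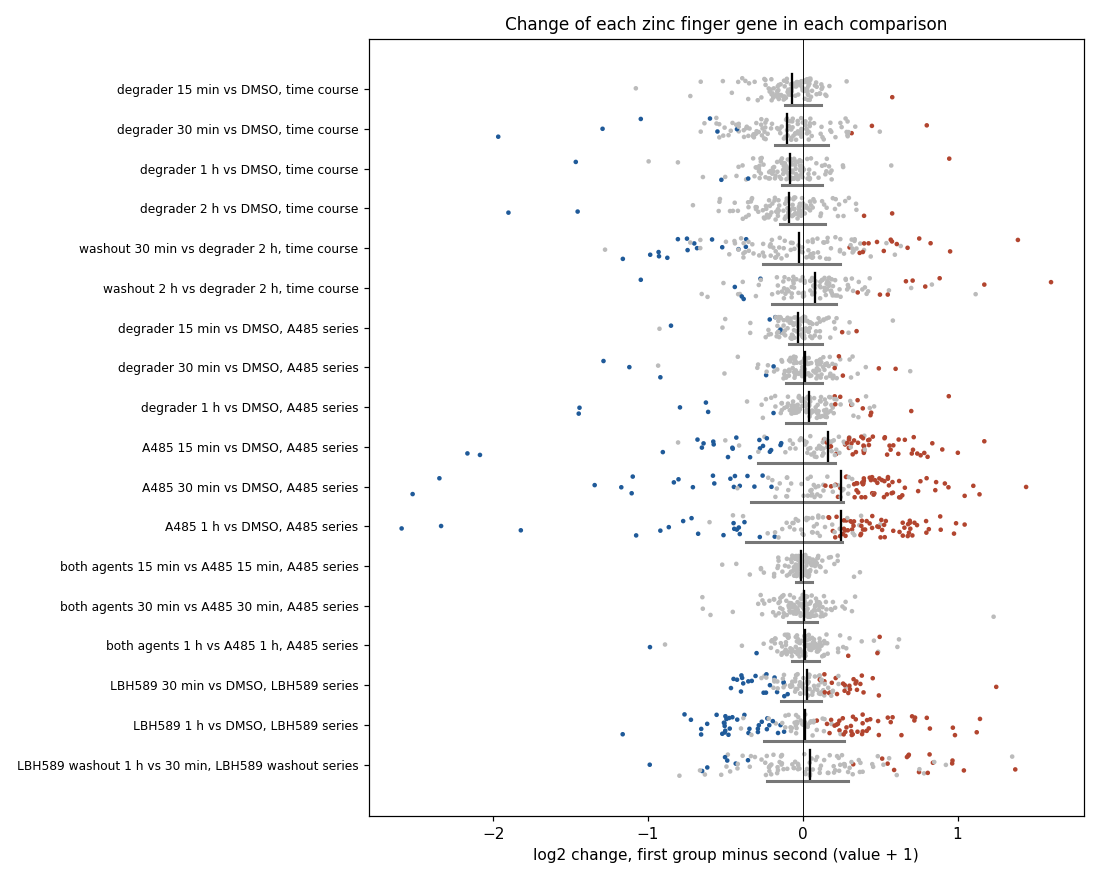
Log2 change of each zinc finger gene (points) in 18 comparisons, first group minus second; red points were called higher, blue lower and grey neither, black bars mark the members' median and the grey bar under each row spans the middle 50% of all genes. With A485 the members' medians lie to the right of 0 while 33, 32 and 34 of the 116 members lie to the left of it, with Zfp970 at the left end at -2.17, -2.52 and -2.59.

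Zfp970 and Zfp971 went against the family with A485, to levels below those with degrader and with no overlap between the 2 agents at 1 h. Zfp970 had 34, 51.9 and 35.7 normalised reads at 15 min, 33.2 and 28.8 at 30 min and 17.2, 40.2 and 36.3 at 1 h, against 170 to 189 in DMSO. Its changes were -2.17 ± 0.27, -2.52 ± 0.31 and -2.59 ± 0.27 (adjusted p at 1 h 5.16e-10, limma). Zfp971 had 148, 228 and 150, then 126 and 162, then 115, 131 and 200, with changes of -2.09, -2.35 and -2.34 (adjusted p at 1 h 2.2e-13). Most of the fall of both genes was present at 15 min, and they were the 2 members with the largest falls at each time. Zfp608, which degrader raised, fell in steps, to 296, 301 and 291 at 15 min, 185 and 187 at 30 min and 121, 101 and 116 at 1 h (-1.82 ± 0.09, adjusted p = 4.04e-18).

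Other members that fell with A485 were Zfp654, Zfp882 and Zfp831. Zfp654 had 2803, 2787 and 2808 normalised reads in DMSO and 1182 and 1304 at 30 min (-1.17 ± 0.06). Zfp882 had 813, 820 and 720 in DMSO and 399, 406 and 450 at 15 min (-0.90 ± 0.06), and Zfp831 had 1123, 1149 and 1103 in DMSO and 531, 513 and 554 at 1 h (-1.08 ± 0.06). Zfp819 was lower at 30 min (-1.35 ± 0.48, adjusted p = 0.0164, limma), a call lost without DMSO replicate 6 or A485 replicate 1. Among the members that rose, Zfp846 went from 410, 453 and 410 to 790, 852 and 912 at 15 min (1.00 ± 0.07, adjusted p = 6.37e-14). Zfp764 went from 21.7, 18.3 and 21.9 to 46.9, 60.2 and 38 at 15 min (1.17 ± 0.27) and 48.5 and 68.2 at 30 min (1.44 ± 0.30), and Zfp995 from 60.5, 50.2 and 57.8 to 124, 90.5 and 142 at 1 h (1.04 ± 0.19). The groups named here did not overlap.

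The members with roles outside or well known within the KRAB system went both ways with A485. Of 13 such genes tested in the A485 series, 4 were higher and 3 lower at 1 h, where 29.4% and 33.2% of all genes were called. Zfp708, which binds a class of mouse retroelement, rose by 0.80 (adjusted p = 1e-05, limma) and Zfp638, a nuclear protein that binds cytidine-rich DNA, by 0.38 (adjusted p = 1.3e-07). Zfp644, a partner of the methyltransferases G9a and GLP, rose by 0.17 (adjusted p = 6.3e-05), and Zfp639 by 0.31 (adjusted p = 7.6e-05). Zfp652 fell by 0.45 (adjusted p = 4e-06), Zfp706 fell by 0.51 (adjusted p = 1.4e-09) and Zfp703, a corepressor, fell by 0.41 (adjusted p = 0.0003). Zfp809 and Zfp932, both known for binding retroelements, changed by 0.06 and 0.13 and did not pass the test.

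Adding degrader to A485 called few members. Against A485 alone, limma called 0 of 116 members at 15 min, with 6 at an unadjusted p under 0.05 (all genes 0.857% higher and 0.0238% lower), and 0 at 30 min, with 7 (all genes 1.31% and 0.5%); edgeR on recovered reads also called 0 at both times. At 1 h, 3 members were higher and 2 lower (all genes 4.56% and 2.34%). Zfp608 had 148, 164 and 164 normalised reads with both agents against 121, 101 and 116 with A485 (0.50 ± 0.09, adjusted p = 0.000498). Zfp942 (0.29 ± 0.07) and Zfp932 (0.48 ± 0.15) were also higher, and Zfp639 was lower (-0.30 ± 0.06); the call of Zfp932 was lost without A485 replicate 2 or 3 or both-agents replicate 1 or 3, and by edgeR. Zfp970 had 19.2, 16.5 and 9.22 with both agents and 17.2, 40.2 and 36.3 with A485, groups that overlap (-0.99 ± 0.27, adjusted p = 0.0227), and its call was lost without A485 replicate 2 or 3 or both-agents replicate 3.

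The test of the difference itself asked whether 1 h of degrader did more or less with A485 present than without. For 6 members the degrader effect was lower with A485 and for 1 it was higher (all genes 6.54% and 4.99%). Zfp608 rose by 0.94 with degrader alone and by 0.50 on top of A485, a difference of -0.45 ± 0.13 (adjusted p = 0.0245, limma), which missed the threshold by edgeR, and without DMSO replicate 4 or 6, degrader replicate 4 or 5, A485 replicate 1 or both-agents replicate 1. Zfp853 had the largest difference in size (0.79 ± 0.27) and was not called (adjusted p = 0.0587). Among the called members the largest was that of Zfp783 (-0.73 ± 0.17, adjusted p = 0.0036), which had 316, 464 and 478 normalised reads with A485 and 405, 422 and 388 with both agents. For Zfp970 and Zfp971 the differences were 0.46 ± 0.39 (adjusted p = 0.49) and 0.40 ± 0.25 (adjusted p = 0.33), which does not show that the effects were alike.

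With LBH589 the members split in both directions at about the rate of other genes. At 30 min, 25 of 117 members were higher and 20 lower (21.4% and 17.1%), against 17.8% and 21.9% of all 12553 genes. At 1 h, 43 were higher and 34 lower (36.8% and 29.1%), against 32.4% and 34.6%. The medians were 0.03 and 0.01. The largest rise at 1 h was of Zfp667, from 407, 358 and 423 normalised reads to 879, 850 and 894 (1.14 ± 0.07, adjusted p = 9.14e-15, limma), and the largest fall of Zfp628, from 713, 699 and 607 to 310, 312 and 277 (-1.16 ± 0.08, adjusted p = 1.13e-13). Zfp949 (0.98 ± 0.06) and Zfp760 (0.97 ± 0.08) also rose, and so did Zfp819, from 11.3, 8.45 and 7.64 to 18.7, 16.6 and 28.9 (1.12 ± 0.28). At 30 min, Zfp819 (1.25 ± 0.28), Zfp760 (0.49 ± 0.08) and Zfp763 (0.45 ± 0.09) were higher and Zfp692 (-0.46 ± 0.08) and Zfp628 (-0.45 ± 0.08) lower. None of the LBH589 groups named here overlapped with DMSO.

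Zfp970 and Zfp971 fell with LBH589 too. In the LBH589 series, Zfp970 had 336, 299 and 354 normalised reads in DMSO and 230, 223 and 233 at 1 h (-0.52 ± 0.09, adjusted p = 4.04e-06, limma). Zfp971 had 1405, 1322 and 1521 in DMSO and 855, 957 and 880 at 1 h (-0.66 ± 0.05, adjusted p = 4.55e-12). Zfp608 rose, from 225, 237 and 231 to 396, 431 and 400 (0.82 ± 0.08, adjusted p = 1.47e-10). Of the ZNF652 relatives, Zfp651 rose by 0.57 (adjusted p = 0.0003) and Zfp652 fell by 0.23 (adjusted p = 0.0016).

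The 2 inhibitors moved members in like and in unlike directions. Of the 58 members higher with 1 h of A485, 19 were higher and 17 lower with 1 h of LBH589, and 22 passed in neither direction; these are 32.8% and 29.3%, beside 30.7% and 37.4% of the 3649 genes of all kinds higher with A485. Of the 18 lower with A485, 8 were higher and 8 lower with LBH589 (44.4% each), beside 34.9% and 37.5% of 4185 genes of all kinds. These are counts of 2 lists from different libraries with their own DMSO, and no test of overlap was made.

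**Figure D5:**
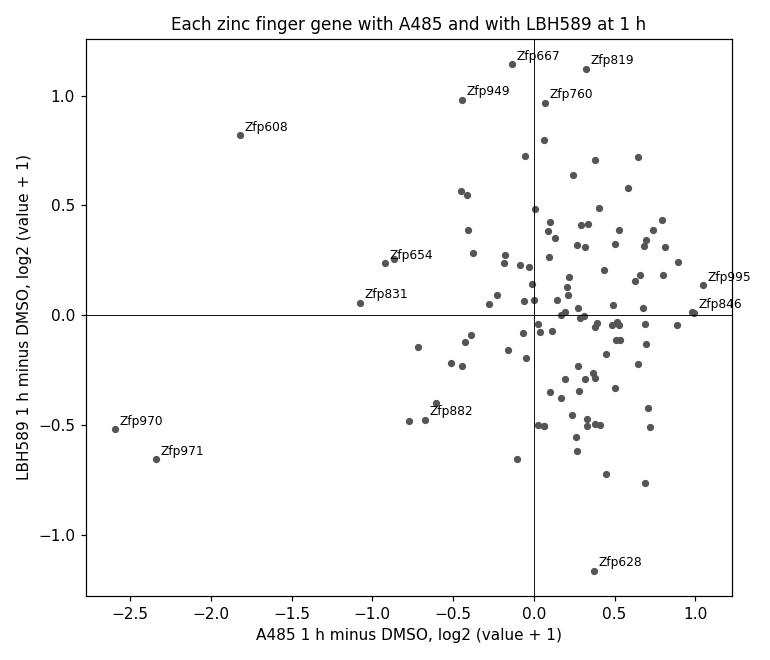
Log2 change of each zinc finger gene with 1 h of A485 (horizontal) and 1 h of LBH589 (vertical), each against its own DMSO. Zfp970 and Zfp971 lie alone at the lower left (-2.59 and -2.34 with A485), Zfp608 at the upper left (-1.82 and 0.82), and the other members spread over both signs of both changes, with 34 of the 116 in all left of 0 with A485.

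In the LBH589 washout series, 15 of 114 members were higher and 7 lower at 1 h than at 30 min of recovery (13.2% and 6.14%), against 13.2% and 10.1% of all 12342 genes. Zfp661 rose from 20.5, 23.5 and 35.4 normalised reads to 58.7, 58.4 and 92.8 (1.37 ± 0.29), Zfp637 from 28.1, 30.9 and 40.5 to 55.3, 60.8 and 95.2 (1.04 ± 0.27) and Zfp935 from 59.3, 60.6 and 69.8 to 140, 95.8 and 142 (0.96 ± 0.21). Zfp808 fell from 57.2, 60.6 and 72.8 to 35.9, 29.2 and 29.4 (-0.99 ± 0.23). Zfp971 had 48.6, 37.1 and 52.6 at 30 min and 101, 87.7 and 82.2 at 1 h (0.97 ± 0.22, adjusted p = 0.0126, limma), and Zfp608 had 240, 224 and 223 and then 377, 386 and 453 (0.82 ± 0.12, adjusted p = 0.00288). This table was scaled on its own and holds no DMSO library, so its levels are not set against the others. All 5 of the largest calls (Zfp661, Zfp637, Zfp808, Zfp971 and Zfp935) were lost without 30 min replicate 2, when 5 members were called in place of 22.

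Neighbouring members were described by their place in the genome. By RefSeq order, 78 members lay in 22 neighbourhoods, in which each gene's start is within 500 kb of the next member's. With 1 h of A485, 17 neighbourhoods held calls higher only, 2 lower only, 2 both and 1 none, in a family of which 50% was called higher and 15.5% lower. With 1 h of LBH589, 10 held calls higher only, 6 lower only and 6 both, where 36.8% and 29.1% of the family were called. The neighbourhoods named next were chosen after their values were seen. In the largest, with 10 genes from Zfp758 to Zfp995, 5 were higher and 0 lower with 1 h of A485 (median 0.26), and 6 were higher and 0 lower with 1 h of LBH589 (median 0.45). In that of Zfp708, Zfp712, Zfp738, Zfp748, Zfp759 and Zfp953, 5 of 6 were higher with A485 (median 0.46) and 1 with LBH589 (median 0.00). In that of Zfp617, Zfp709, Zfp882 and Zfp961, 0 were higher and 2 lower with A485, and 0 higher and 3 lower with LBH589. After 1 h of degrader in the A485 series, 4 neighbourhoods held calls higher only, 2 lower only and 16 none, where 8.62% and 5.17% of the family were called. The 9 genes around Zfp646 and Zfp764 had 3 higher and 0 lower (median 0.24). Only the neighbourhood of Zfp970, Zfp971 and Zfp972 had 2 lower, and these were the pair whose falls were known beforehand. Neighbours can share reads through similar sequence, and these counts are descriptions.

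A list of the corepressor machinery of KRAB zinc finger proteins and other chromatin genes had genes called in both directions after 1 h of each agent. Beside Trim28 and Setdb1 it held genes such as Dnmt1, Uhrf1, Atrx, Daxx, Ehmt2, Suv39h1 and Rlf. Its counts are therefore not those of Trim28, Setdb1 and their partners alone. Of 28 such genes tested, 1 was higher and 7 lower after 1 h of degrader in the series with A485 (median -0.08), where 14.7% and 10.9% of all genes were called. Trim28 changed by -0.24 ± 0.09 (adjusted p = 0.0364, limma) in the A485 series and by -0.10 ± 0.13 (adjusted p = 0.739) in the time course, and Setdb1 by -0.09 ± 0.04 (adjusted p = 0.089) and -0.04 ± 0.07 (adjusted p = 0.807). With 1 h of A485, 8 were higher and 12 lower with a median of 0.01 (all genes 29.4% and 33.2%), led by the chromatin remodeller Chd4 (-1.06 ± 0.04, adjusted p = 1.45e-21). With 1 h of LBH589, 6 were higher and 18 lower (all genes 32.4% and 34.6%), and Trim28 changed by -0.33 ± 0.05 (adjusted p = 4.07e-07).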

How the data were processed

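PRO-seq libraries of MEL Mtg16-FKBP-2XHA cells were used as 4 gene tables of 62 libraries with values. Per the labels, the deposited tables hold normalised read counts (a signal scaled by DESeq2 size factors), and per the submitters' processing notes the tools were Bowtie2 2.2.2, SAMtools 1.16.1, featureCounts 2.0.1 and DESeq2 1.46.0, with the builds mm39 and dm3 and no roles given. All values in the columns used came out as whole reads within 0.1 of a read once divided by their smallest step. 3 value columns of the time course were not used: an empty one and 2 whose names could not be settled. The header there holds more names than columns of values, so names may be shifted by 1 place. The washout columns used at 1 h and 2 h belong to their group either way, but their replicates are not settled.

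One transcript per symbol (highest mean) was tested where its table mean was at least 10. limma 3.58.1 in R 4.3.3 was fitted to log2(value + 1) with all groups of a table, trended variances and Benjamini-Hochberg adjustment over all genes. On simulated counts with known changes, 93% and 94% of 2-fold changes were recovered in the 1 h degrader comparisons of the time course and A485 series. The simulation gave all genes the same spread and held no library that stands apart, so recovery in the real time course may differ. Changes smaller than 2-fold were not simulated, so recovery of the small changes of most members was not measured. Alternatives were another pseudocount and filter, upper quartile scaling, edgeR 4.0.16 on recovered reads, the lowest-mean transcript, the compared groups alone, each library left out and a replicate block. Only for 1 h of degrader in the time course did every same-numbered pair deviate together, and weakly (r = 0.13 to 0.18). Differently numbered pairs were not compared, so whether the numbers pair the samples there is not settled.

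The members and all lists were chosen with earlier results of these data known. The counts without Zfp970 and Zfp971 were added after seeing the data. Genes were named when they had the largest called changes without overlap (up to 5 a comparison), were called in the interaction or with 1 h of degrader in both experiments, had a known role, or led in level. Enhancer (dREG) tables gave no results here. That of the time course only checked column names, by comparing each column's correlations with the DMSO and degrader libraries. Degrader 30 min replicate 3 matched washout 30 min replicate 1 best (r = 0.96, own name 0.91). Degrader 15 min replicate 2 matched its own name best (0.97). Washout 1 h matched a washout 2 h column best (0.94, own name 0.90). Some other columns also matched another group best, such as degrader 2 h replicate 2 (0.87, own name 0.85). Promoters are RefSeq's, GRCm38.p6, found for 102 of the 117 members.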

Additional observations from a re-analysis of the deposited data

Results flagged for a closer look

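The effect of 1 h of degrader differed with and without A485 for 7 members by the interaction term of limma's fit. The effect with A485 minus that without was -0.727 for Zfp783, -0.644 for Zfp759, -0.512 for Zfp661, -0.447 for Zfp608, -0.441 for Zfp639 and -0.384 for Zfp629 on the log2 scale, with adjusted p from 0.000907 (Zfp639) to 0.0385 (Zfp661). For Zfp871 it was 0.228 (adjusted p = 0.0193). Zfp871 had 1870, 1810 and 1935 normalised reads in DMSO, 1736, 1558 and 1631 with degrader, 2145, 2236 and 2110 with A485 and 2247, 2166 and 2250 with both agents. Zfp639 had 548, 496 and 510 in DMSO, 594, 580 and 540 with degrader, 652, 611 and 661 with A485 and 520, 506 and 536 with both. The calls of Zfp783 and Zfp639 held with each library left out; that of Zfp871 was lost without DMSO replicate 6 or degrader replicate 5, that of Zfp629 without DMSO replicate 5, degrader replicate 5 or A485 replicate 1, and those of Zfp661, Zfp759 and Zfp608 without any one of 6 to 8 libraries. The 7 are 6.03% of the 116 members tested, where 11.5% of all genes were called.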

How the results depend on the processing

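The counts of members called with A485 against DMSO, with LBH589 against DMSO and with 30 min and 1 h of degrader in the A485 series stayed within 1.5 times under each alternative run, and no named change reversed its sign. Over 1183 recomputed values of called and named changes, 1031 stayed called and 152 did not. The time course moved most. Fitting the compared groups alone gave 2, 1, 21 and 20 members at 15 min, 30 min, 1 h and 2 h of degrader, 59 and 53 at 30 min and 2 h of washout, 16 at 15 min of degrader in the A485 series and 1 for both agents at 1 h. Without the libraries that stand apart the time-course counts were 18, 13, 30, 34, 66 and 41. With no filter on the mean, 2 were called at 15 min in the time course, and without the 5 libraries with conflicting labels 3 were called at 30 min. The causes were not tested.

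Leaving out 1 library gave 1 to 2 members at 15 min of degrader in the time course (2 without degrader replicate 2), 3 to 22 at 30 min (4 and 3 without DMSO replicates 2 and 3, 21 and 22 without degrader replicates 1 and 2), 1 to 3 at 1 h (1 without DMSO replicate 2 or 3 or degrader replicate 1 or 2) and 1 to 4 at 2 h (1 without DMSO replicate 2 or 3 or degrader replicate 1, 2 without degrader replicate 2). It gave 0 for each library at 30 min of washout and 3 to 7 at 2 h. In the A485 series it gave 2 to 5 at 15 min of degrader (2, 4 and 3 without DMSO replicates 4, 5 and 6), 0 to 1 for both agents at 30 min and 3 to 5 at 1 h, and 3 to 11 for the interaction (11 without A485 replicate 3, 3 without DMSO replicate 6). For the LBH589 washout it gave 5 to 36 (5 and 8 without 30 min replicates 2 and 3, 13 and 36 without 1 h replicates 1 and 3). A lone library in a group is assumed to vary like the other groups.

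With a replicate block, both agents at 1 h called 2 members in place of 5, where same-numbered libraries did not deviate together (r = -0.06 to 0.01). At 1 h of degrader in the time course, where they did so weakly, the block called 3 in place of 4. In that fit Zfp970 and Zfp949 were no longer called. No other count moved by over 1.5 times under the block. It was not run for 2 h of washout, whose columns could not be tied to replicates. Low genes such as Zfp970 under A485, with as few as 6 reads in a library, are limited by depth.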

Other observations

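At 2 h of washout the members' changes went with gene length: over the 116 members Spearman's rho was -0.44, and over all genes -0.43, a description over genes that share the same libraries. With 1 h of A485 the same values were 0.01 and 0.05. The promoters of members that reached the mean of 10 had a median of 14 CpG per 300-base window, against 7 over all promoters. All promoters were not filtered by transcription, so whether this is a trait of the family was not tested. The Zfp970, Zfp971 and Zfp972 windows held 3, 4 and 4. The ratio of Zfp971 to Zfp970 was 10.8 on average at 30 min of washout and 4 at 2 h, against 5.02 in DMSO of the time course.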
